A study of Homo sapiens with 45 samples.

Results

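Tight junctions and desmosomes join epithelial cells to each other, and the genes described here encode their parts. The set was given as a list of 39 gene symbols, covering claudins and other tight junction membrane proteins, tight junction plaque proteins, polarity proteins, desmosomal cadherins, desmosomal plaque proteins, and nectins with their partner afadin. Of these, 38 had a probe set that is annotated to 1 gene, out of 19775 such genes on the array. F11R was not analysed here. Each gene was read on its brightest probe set, and all 38 entered the test together with 14896 genes in all.

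The study used 3 established human cancer cell lines, the ovarian cancer lines HEY and SKOV3 and the prostate cancer line PC3. Each line received 1 of 4 Pre-miR precursors at 33 nM by Lipofectamine transfection: that of miR-203a, that of miR-205, that of miR-429, or a control precursor with the label miR-NC. RNA was taken after 48 h. A last group of each line was labelled as untransfected. Each of the 15 groups has 3 arrays (45 in all), and the labels do not say whether the 3 come from separate cultures, so p-values measure the spread between arrays. Each group is a single cancer cell line that was given the miRNA from outside, which limits it as a model.

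Tight junctions seal the gap between neighbouring epithelial cells. Claudins and occludin form the strands of the seal, and ZO proteins (TJP1, TJP3) and cingulin tie the strands to actin. The Crumbs and PAR polarity complexes place the junction at the top of the lateral membrane. Desmosomes are spot-like contacts in which desmogleins and desmocollins reach across the gap, while plakophilins, plakoglobin and desmoplakin anchor keratin filaments to them. Nectins start cell contacts and recruit afadin. Several of these genes are repressed by the transcription factors ZEB1 and ZEB2, which bind CACCTG motifs. ZEB1 and ZEB2 are known targets of miR-429, a member of the miR-200 family, and of miR-205, and SNAI2 is a known target of miR-203a.

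The mature miRNAs of the transfected precursors are shown because their seeds differ from each other, so each miRNA pairs with a different set of messages. The sequences are from RefSeq on build GRCh38.p14, printed 5′ to 3′ with the seed (bases 2 to 8) in capitals. The labels do not name the arm, and for miR-203a and miR-205 the arm usually named as the guide strand is given.
hsa-miR-203a-3p: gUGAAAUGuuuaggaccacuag
hsa-miR-205-5p: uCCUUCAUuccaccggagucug
hsa-miR-429: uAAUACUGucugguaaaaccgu
The first lies at chr14:104117469-104117490, the next at chr1:209432166-209432187 and the last at chr1:1169055-1169076, all on the plus strand.

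The values are log2 intensities, and 4.89, the median of all values, is used here as the level near background. ERBB2 and CTNNA1 fitted the line labels of the transfected arrays. ERBB2, amplified in SKOV3, averaged 11.34 ± 0.08 in SKOV3 miR-NC and 6.83 ± 0.13 in HEY miR-NC (SD, n = 3 each). CTNNA1, which PC3 cells are known to have lost, averaged 3.57 ± 0.68 in PC3 miR-NC, against 12.57 ± 0.10 in SKOV3 miR-NC and 11.59 ± 0.07 in HEY miR-NC. HOXB13, a prostate marker, did not set PC3 apart under miR-NC, with 6.56 ± 0.63 in PC3 miR-NC and 6.70 ± 0.21 in SKOV3 miR-NC, and averaged 11.73 on the arrays labelled untransfected SKOV3. The leukocyte marker PTPRC lay between 2.80 and 3.29 in the miR-NC and untransfected groups, below the background level. The endothelial markers CDH5 and PECAM1 were not low everywhere. CDH5 averaged 9.89 in HEY miR-NC and 9.75 on the arrays labelled untransfected PC3, against 3.30 in SKOV3 miR-NC and 3.59 in PC3 miR-NC. PECAM1 averaged 9.05 in PC3 miR-NC, 6.49 in HEY miR-NC and 4.58 in SKOV3 miR-NC. The reason was not tested. The arrays labelled untransfected went against their line labels: ERBB2 averaged 12.31 on those labelled HEY and 7.60 on those labelled SKOV3, and CTNNA1 averaged 11.58 on those labelled PC3. The main tests therefore left them out. They entered the choice of the brightest probe set and, as an alternative, a fit of all 45 arrays. For each miRNA the main control was miR-NC of the same line.

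Control probe sets at the 5′ end of GAPDH can move with RNA or amplification quality. They can also move with the level of GAPDH itself, which was not told apart from quality. In SKOV3 they were level, with differences from miR-NC of -0.00 for miR-203a, 0.01 for miR-205 and -0.04 for miR-429. In PC3 the differences were 4.95 for miR-203a, 3.66 for miR-205 and -0.50 for miR-429. The 5′ means in PC3 were only 5.04 with miR-NC and 4.54 with miR-429, against 13.74 in SKOV3 miR-NC. At the 3′ end of GAPDH the PC3 differences were 2.01, 1.82 and -0.32 in the same order. In HEY the 5′ differences were 0.58 for miR-203a, 3.92 for miR-205 and -2.12 for miR-429. At the 3′ end of GAPDH the HEY differences were 0.07, 1.48 and 1.31 in the same order. The sign with miR-429 was thus opposite at the 2 ends. At the 5′ end of ACTB the differences were 3.73, 2.73 and -0.55 in PC3, again for miR-203a, miR-205 and miR-429. They were 0.75, 1.22 and -0.97 in HEY and -0.00, -0.03 and -0.04 in SKOV3. At the 3′ end of ACTB they were 0.235, 0.35 and 0.11 in PC3 and 0.02, -0.03 and 0.33 in HEY. Results in PC3 with miR-203a and miR-205, and in HEY with miR-205 and miR-429, thus stand beside a shift in the 5′ signal, whose part in them was not tested. Those in PC3 with miR-429 stand beside low array medians, at 4.49 to 4.51 against 4.89 to 4.93 with miR-NC.

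The junction genes differed between the 3 lines with the control precursor miR-NC. Under miR-NC, 35 of the 38 genes lay above the background level in PC3, 35 in SKOV3 and 27 in HEY. PC3 differed from SKOV3 in 36 of the genes (22 higher, 14 lower), where 83.8% of all genes tested differed (46.8% higher, 37% lower). PC3 differed from HEY in 30 (25 higher, 5 lower), where 62.2% of all genes differed (27.9% higher, 34.3% lower), and SKOV3 from HEY in 35 (18 higher, 17 lower), where 81.2% did (35.1% higher, 46.1% lower). The share of genes that differed was high everywhere, and line cannot be told apart from how its arrays were run. With miR-NC the 5′ GAPDH control averaged 13.74 in SKOV3, 8.37 in HEY and 5.04 in PC3. The 5′ ACTB control averaged 13.73, 6.24 and 4.72 in the same order, and its part in these differences was not tested.

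The median difference between PC3 and HEY was 0.58 over the junction genes and -0.08 over all genes, and that between PC3 and SKOV3 was 1.15 and 0.20. Between SKOV3 and HEY it was 0.14 over the junction genes and -0.18 over all genes. Single genes differed in either direction. DSC3, a desmosomal cadherin, had 9.42, 9.90 and 9.80 in PC3 miR-NC, and averaged 4.94 in SKOV3 miR-NC and 3.58 in HEY miR-NC. CLDN11, a claudin best known from myelin and Sertoli cells, averaged 12.26 in PC3 miR-NC, 6.09 in SKOV3 miR-NC and 7.94 in HEY miR-NC. MARVELD2, or tricellulin, which seals the points where 3 cells meet, averaged 10.31 in PC3 miR-NC, 8.78 in SKOV3 miR-NC and 5.03 in HEY miR-NC. CLDN1, a barrier-forming claudin, ran the other way, with 6.45 in PC3 miR-NC, 9.66 in SKOV3 miR-NC and 10.09 in HEY miR-NC. CLDN12 was low in SKOV3 alone, at 7.88 under miR-NC, against 11.96 in HEY miR-NC. JUP, or plakoglobin, averaged 7.54 in SKOV3 miR-NC and 4.12 in HEY miR-NC, a difference of 3.42 ± 0.19 log2 units (SE, adjusted p = 3.83e-16, limma). PARD3, a scaffold of the PAR complex, averaged 10.99 in SKOV3 miR-NC and 7.80 in HEY miR-NC. HEY thus had plakoglobin, CLDN4 (3.82), CLDN7 (2.72), CRB3 (4.36) and PPL (4.04) below the background level under miR-NC.

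Of the 9 comparisons with miR-NC, SKOV3 with miR-429 had the highest share of junction genes that rose in the values as deposited. With array medians subtracted, PC3 with miR-429 had 25 of 38 higher and SKOV3 with miR-429 had 22. In the values as deposited, 22 of the 38 genes rose in SKOV3 with miR-429 and 1 fell, while 29.2% of all genes were called, 19.3% higher and 9.88% lower. The median change was 0.56 log2 units over the junction genes and -0.00 over all genes. HEY with miR-203a had the fewest calls, with 8 genes (4 higher, 4 lower) where 18.6% of all genes were called (8.53% higher, 10.1% lower). In RNA from whole cultures, fewer cells that make a transcript and less of it in each cell cannot be told apart.

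**Figure D1:**
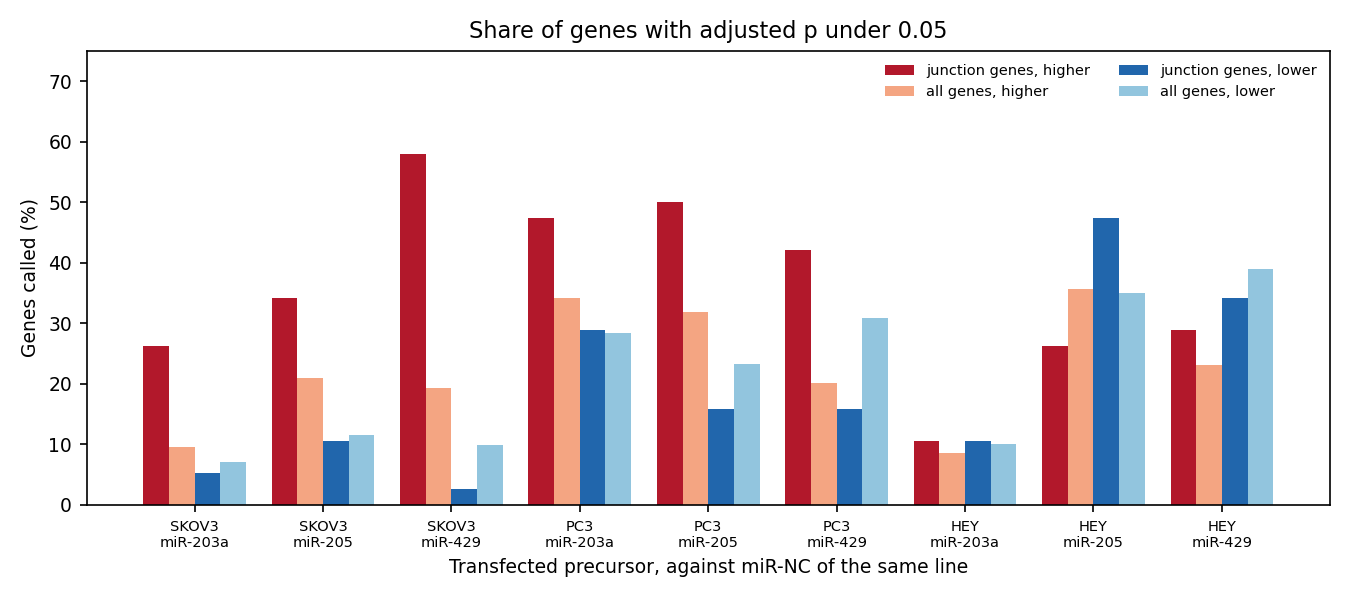
Share of genes, in percent, that passed adjusted p under 0.05 in each comparison of a miRNA with miR-NC of the same line. Dark bars are the 38 junction genes and light bars all 14896 genes tested, in red where higher and in blue where lower. In SKOV3 with miR-429 the dark red bar stands at 22 of 38 genes, against 19.3% of all genes.

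**Figure D2:**
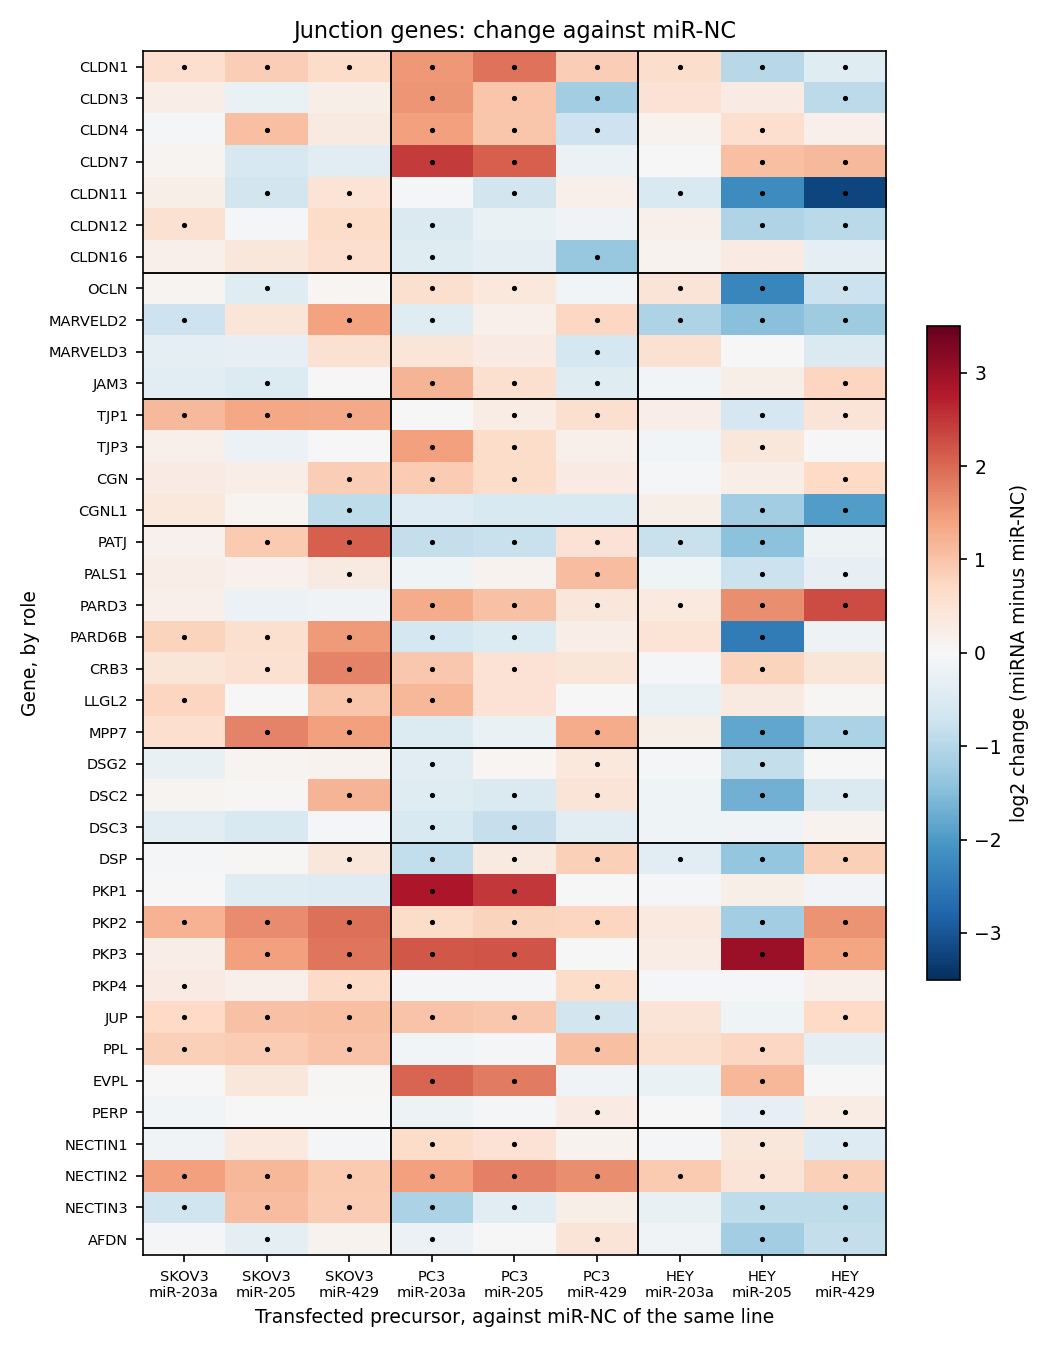
Log2 change of each junction gene (miRNA minus miR-NC of the same line, mean of 3 arrays each), with genes by role from claudins at the top to nectins and afadin at the bottom. Red is higher, blue is lower, and dots mark adjusted p under 0.05. The miR-429 column of SKOV3 holds 22 red dotted cells and 1 blue one (CGNL1), and the NECTIN2 row is red in all 9 columns.

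In SKOV3 with miR-429 the genes of the polarity proteins were mostly higher. Of 7 polarity genes 6 rose and none fell, with PARD3 at a change of -0.11 as the one that was not called. PATJ, a scaffold of the Crumbs complex, had 9.26, 8.76 and 9.04 with miR-429, against 6.79, 6.89 and 7.13 with miR-NC. This is a rise of 2.08 ± 0.18 log2 units (SE), or 4.24-fold (adjusted p = 2.16e-10, limma). CRB3, the membrane protein of that complex, had 8.01, 7.45 and 7.79 with miR-429, against 5.99, 6.18 and 5.91 with miR-NC, a rise of 1.73 ± 0.20 (adjusted p = 1.06e-07). The arrays of the groups did not overlap for either gene, which was part of the rule that picked PATJ. Groups did not overlap for 27 of the 38 junction genes and for 50.9% of all genes in this comparison. PALS1, which links CRB3 to PATJ, had 11.13, 11.05 and 11.14 with miR-429, against 10.83, 10.69 and 10.84 with miR-NC, and rose by only 0.32 ± 0.09. PARD6B, the PAR complex adaptor of atypical protein kinase C, had 7.07, 6.86 and 7.54 with miR-429, against 5.80, 5.58 and 5.59 with miR-NC, a rise of 1.50 ± 0.18. LLGL2, a basolateral polarity protein, had 7.04, 7.06 and 7.04 with miR-429, against 6.01, 6.18 and 6.06 with miR-NC, a rise of 0.96 ± 0.22. MPP7, a scaffold that binds DLG1, had 4.97, 5.01 and 5.64 with miR-429 and 3.64, 3.66 and 4.02 with miR-NC, where it lies below the background level.

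PATJ, CRB3 and LLGL2 are known from human breast cancer cells as genes that ZEB1 represses. ZEB1 itself averaged 7.57 ± 0.08 in SKOV3 with miR-429 and 9.72 ± 0.07 with miR-NC (SD, n = 3 each), a change of -2.15 log2 units (adjusted p = 6.25e-16). The 250 bases before the start of CRB3 and PATJ, the polarity genes that rose most, and of DSP, which rose with miR-429 in every line, are shown with the motif CACCTG, read on both strands (CAGGTG on the plus strand), in capitals. They are from RefSeq on build GRCh38.p14, all on the plus strand.
CRB3, chr19:6464021-6464270: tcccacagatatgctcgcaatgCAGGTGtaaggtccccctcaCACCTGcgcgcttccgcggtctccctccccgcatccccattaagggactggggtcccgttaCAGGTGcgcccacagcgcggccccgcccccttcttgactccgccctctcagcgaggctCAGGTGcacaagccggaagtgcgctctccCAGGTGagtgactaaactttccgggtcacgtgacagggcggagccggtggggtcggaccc
PATJ, chr1:61742230-61742479: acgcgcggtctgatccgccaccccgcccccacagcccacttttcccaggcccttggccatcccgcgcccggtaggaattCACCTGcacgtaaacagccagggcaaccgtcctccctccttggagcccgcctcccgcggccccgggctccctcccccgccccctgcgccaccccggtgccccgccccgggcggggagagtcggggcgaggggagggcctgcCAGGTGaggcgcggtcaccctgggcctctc
DSP, chr6:7541421-7541670: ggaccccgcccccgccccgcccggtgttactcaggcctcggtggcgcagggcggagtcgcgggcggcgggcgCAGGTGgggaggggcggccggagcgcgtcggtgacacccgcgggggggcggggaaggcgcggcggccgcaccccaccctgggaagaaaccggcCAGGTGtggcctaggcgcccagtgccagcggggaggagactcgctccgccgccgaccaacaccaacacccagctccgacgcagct
The CRB3 window holds 5 matches, and those of PATJ and DSP hold 2 each. Of the other genes that rose with miR-429 in every line, TJP1 holds 1 match, NECTIN2 holds none and PKP2 had no window. The windows of MARVELD2 and MPP7, which also rose in SKOV3 with miR-429, hold none, and that of DSC2, which rose there too, holds 1. Among genes not called in SKOV3 with miR-429, AFDN holds 4 matches, DSG2 holds 2 and OCLN holds 1. In HEY, where ZEB1 also fell with miR-429, DSP and TJP1 rose but PATJ and OCLN did not. PATJ averaged 6.87 with miR-429 and 7.04 with miR-NC there, and OCLN 9.93 and 10.69. A window was available for 28 of the junction genes, of which 8 (28.6%) hold the motif, beside 4781 of 27305 windows of all genes (17.5%). A match is a run of letters and was not tested as a binding site, and a part of ZEB1 in these rises was not tested.

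Of the tight junction genes in SKOV3 with miR-429, 4 of 7 claudins, 1 of 4 other membrane proteins and 2 of 4 plaque proteins rose, and 1 plaque protein fell. TJP1, or ZO-1, the main plaque scaffold, had 11.80, 11.58 and 11.58 with miR-429, against 10.28, 10.40 and 10.32 with miR-NC. It rose by 1.32 ± 0.10 log2 units (SE), or 2.50-fold (adjusted p = 9.07e-12, limma). MARVELD2 had 10.15, 10.18 and 10.27 with miR-429, against 8.71, 8.77 and 8.87 with miR-NC, a rise of 1.42 ± 0.18 (adjusted p = 4.03e-07). Neither gene's arrays overlapped, as was so for 50.9% of all genes. CGN, or cingulin, rose by 0.86 ± 0.13, while its relative CGNL1 had 8.53, 8.37 and 8.19 with miR-429 and 9.29, 9.36 and 9.13 with miR-NC. CGNL1, or paracingulin, was the only junction gene that fell, by 0.90 ± 0.24 (adjusted p = 0.00464). That call rests on its brightest probe set: with the mean of its probe sets the change was -0.39 (adjusted p = 0.162). Among 7 claudins 4 rose, with CLDN12 at 0.64, CLDN1 at 0.63, CLDN16 at 0.59 and CLDN11 at 0.48 log2 units, and CLDN3, CLDN4, CLDN7, OCLN, MARVELD3, JAM3 and TJP3 were not called.

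Of the 9 genes listed here under the desmosomal plaque, with PERP and PKP4 counted among them, 6 were higher and none lower. PKP2, a plakophilin found in simple epithelia and heart, had 7.77, 7.54 and 7.55 with miR-429, against 5.54, 5.74 and 5.83 with miR-NC. It rose by 1.92 ± 0.18 log2 units (SE), or 3.78-fold (adjusted p = 9.27e-10, limma). PKP3, a plakophilin of most epithelia, had 10.01, 10.20 and 10.08 with miR-429, against 8.33, 8.06 and 8.31 with miR-NC, a rise of 1.86 ± 0.18 (adjusted p = 4.22e-09). The other PKP3 probe set gave 1.91. JUP rose by 1.05 ± 0.19 and PPL, or periplakin, by 0.99 ± 0.30, and desmoplakin (DSP) rose by 0.40 ± 0.11 where it was already at 11.86 with miR-NC. Of the 3 desmosomal cadherins only DSC2 was called, with 8.38, 8.49 and 8.46 with miR-429 against 7.29, 7.25 and 7.22 with miR-NC, a rise of 1.19 ± 0.10. NECTIN2 and NECTIN3 rose by 0.91 ± 0.11 and 0.89 ± 0.15, and NECTIN1 and AFDN were not called.

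The other miRNAs raised fewer junction genes in SKOV3. With miR-205, 13 rose and 4 fell, where 32.4% of all genes were called (20.9% higher, 11.6% lower), and the median change was 0.16 over the junction genes and 0.03 over all genes. With miR-203a, 10 rose and 2 fell, where 16.7% of all genes were called (9.57% higher, 7.14% lower), and the median change was 0.19 over the junction genes and 0.01 over all genes. The 3 comparisons share the miR-NC arrays, so their values are given side by side and not as separate evidence.

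TJP1 in SKOV3 had 11.56, 11.45 and 11.38 with miR-203a and 11.71, 11.60 and 11.73 with miR-205, close to its values with miR-429 and all above miR-NC. Its change was 1.13 ± 0.10 with miR-203a (adjusted p = 3.5e-10) and 1.35 ± 0.10 with miR-205 (adjusted p = 5.45e-12). PKP2 had 7.11, 6.54 and 7.12 with miR-203a and 7.60, 7.13 and 7.38 with miR-205, also all above miR-NC. MPP7 had 5.55, 5.67 and 5.31 with miR-205, against values below the background level with miR-NC. CLDN1, PARD6B, JUP, PPL and NECTIN2 were likewise higher with each miRNA. The PPL call with miR-203a (change 0.84, adjusted p = 0.0492) did not hold in any refit that left out 1 array of either group, and reached 0.0552 after quantile normalization. The PPL call with miR-205 did not hold without miR-NC replicate 3 (adjusted p = 0.0765) or miR-205 replicate 3 (0.0623). PARD6B with miR-205 rose by 0.57 ± 0.18, but its change was -0.16 on the mean of its probe sets, and the call did not hold in the separate fit of the line (adjusted p = 0.0595) or without miR-205 replicate 1 (0.0511) or 2 (0.0624). The JUP call with miR-203a (change 0.70) did not hold in the fit of all 45 arrays (adjusted p = 0.109), and that of CLDN1 with miR-203a did not hold without miR-203a replicate 2 (0.0555).

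Other genes separated the 3 miRNAs in SKOV3. PATJ was higher with miR-205 by 0.91 ± 0.18 and by 0.16 with miR-203a, where it was not called. PKP3 had 9.56, 9.80 and 9.61 with miR-205, a rise of 1.42 ± 0.18 (adjusted p = 4.25e-07), and was not called with miR-203a. MARVELD2 fell with miR-203a, with 7.86, 8.28 and 8.01 against 8.71, 8.77 and 8.87 with miR-NC, a change of -0.73 ± 0.18 (adjusted p = 0.00366). The same gene was among the strongest rises with miR-429. CLDN4, a barrier claudin, had 7.85, 8.06 and 7.97 with miR-205 against 6.78, 7.18 and 6.79 with miR-NC, a rise of 1.05 ± 0.21. CLDN11 had 5.48, 5.40 and 5.51 with miR-205 against 6.35, 5.84 and 6.09 with miR-NC, a fall of 0.63 ± 0.12. NECTIN3, which pairs with nectins on the next cell, had 9.82, 9.84 and 9.52 with miR-205 and 7.86, 8.09 and 7.93 with miR-203a, against 8.42, 8.34 and 9.18 with miR-NC. It rose by 1.08 ± 0.15 with miR-205 and fell by 0.68 ± 0.15 with miR-203a, but on the mean of its probe sets the change with miR-203a turned sign, to 0.048 (adjusted p = 0.906).

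**Figure D3:**
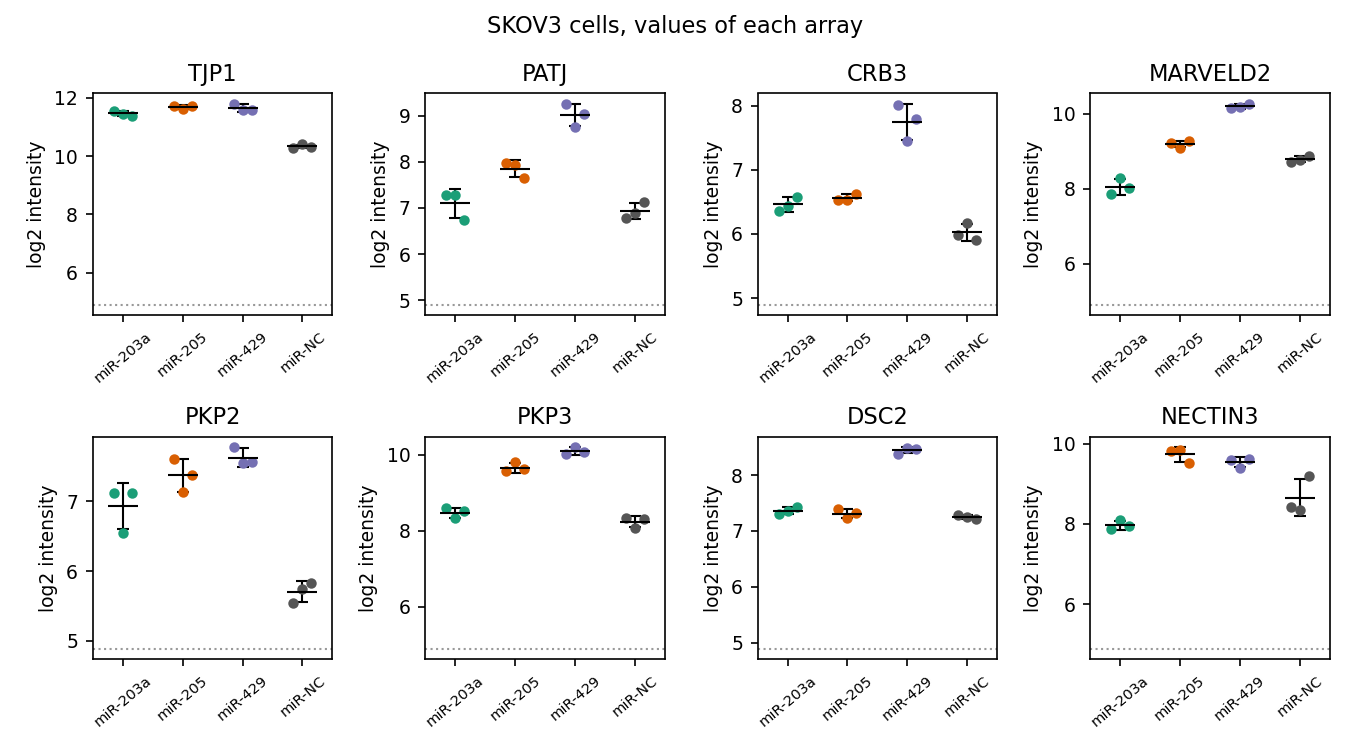
Log2 intensity of 8 junction genes on each SKOV3 array, with miR-203a, miR-205, miR-429 and miR-NC. Points are arrays, bars are the mean and SD of 3 arrays, and the dotted line is the median of all values (4.89). TJP1 and PKP2 are above miR-NC with all 3 miRNAs, PATJ, CRB3 and DSC2 are highest with miR-429, and MARVELD2 is lowest with miR-203a.

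In PC3 all 3 miRNAs raised more junction genes than they lowered. The control probe sets with miR-429 lay near those of miR-NC, and both were low at the 5′ end of GAPDH. The array medians with miR-429 were the lowest of all groups. With miR-429, 16 junction genes rose and 6 fell, where 50.9% of all genes were called (20.1% higher, 30.8% lower). The median change was 0.22 over the junction genes and -0.11 over all genes. With miR-203a 18 rose and 11 fell, where 62.6% of all genes were called (34.2% higher, 28.4% lower). With miR-205 19 rose and 6 fell, where 55% of all genes were called (31.8% higher, 23.2% lower). The median change was 0.22 with miR-203a and 0.31 with miR-205 over the junction genes, and 0.06 with each over all genes. Scaling bears on the miR-429 split: with array medians subtracted, which moved the median of all genes to 0.30, 25 junction genes were higher and 2 lower.

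With miR-429 the rises in PC3 were again among polarity, plaque and cadherin genes. MPP7 had 10.14, 10.24 and 10.53 with miR-429, against 8.92, 9.16 and 8.91 with miR-NC, a rise of 1.31 ± 0.22 log2 units (SE, adjusted p = 2.29e-05, limma) that is 0.28 on the mean of its probe sets (adjusted p = 0.104). PALS1 had 12.15, 12.39 and 12.28 with miR-429, against 11.11, 11.30 and 11.20 with miR-NC, a rise of 1.07 ± 0.09 (adjusted p = 5.3e-10). Neither gene's groups overlapped, which was part of the rule that picked them and held for 53.2% of all genes. PPL had 9.94, 9.84 and 9.32 with miR-429 against 8.81, 8.53 and 8.58 with miR-NC, a rise of 1.06 ± 0.30. DSP had 12.01, 11.99 and 12.11 with miR-429 against 11.23, 11.31 and 11.04 with miR-NC, a rise of 0.84 ± 0.11 (adjusted p = 5.24e-07). MARVELD2 rose by 0.73 ± 0.18, PKP4 by 0.65 ± 0.09, and the desmosomal cadherins DSC2 and DSG2 by 0.46 ± 0.10 and 0.36 ± 0.11. PATJ, already at 10.15 with miR-NC, rose by 0.51 ± 0.18.

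The 6 falls with miR-429 in PC3 were 3 of 7 claudins, 2 other tight junction membrane proteins and 1 desmosomal plaque gene, while the claudin CLDN1 rose by 0.86. CLDN3, a barrier claudin, had 4.77, 4.78 and 4.73 with miR-429, against 5.96, 6.21 and 5.73 with miR-NC, a fall of 1.21 ± 0.23 (adjusted p = 8.15e-05). It ended just below the background level. CLDN4 had 5.49, 5.99 and 5.30 with miR-429, against 6.15, 6.09 and 6.68 with miR-NC, and JUP had 5.55, 5.72 and 5.73 with miR-429, against 5.80, 6.56 and 6.57 with miR-NC. Their changes were -0.71 ± 0.21 for CLDN4 (adjusted p = 0.00544) and -0.64 ± 0.19 for JUP (adjusted p = 0.00637). Without miR-NC replicate 3 the CLDN4 call did not hold (adjusted p = 0.0527). Neither call held after quantile normalization, where the changes were -0.32 for CLDN4 (adjusted p = 0.217) and -0.26 for JUP (adjusted p = 0.249). CLDN16 averaged below the background level in both groups.

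With miR-203a and miR-205, plakophilin, claudin and envoplakin genes were higher in PC3 than with miR-NC. These values stand beside the shift in the control probe sets given above. PKP1, the plakophilin of stratified epithelia, had 9.66, 9.44 and 9.50 with miR-203a, against 6.55, 6.56 and 7.03 with miR-NC. It rose by 2.82 ± 0.19 log2 units (SE), or 7.06-fold, with miR-203a (adjusted p = 5.02e-13). With miR-205 it had 9.18, 9.36 and 9.04 and rose by 2.48 ± 0.19. With miR-429 its mean of 6.70 lay beside the 6.71 of miR-NC. CLDN7, a claudin of many epithelia, had 6.61, 6.17 and 6.31 with miR-203a and 6.02, 6.14 and 5.90 with miR-205, against 3.26, 3.86 and 4.67 with miR-NC, all below the background level. PKP3 had 8.09, 7.82 and 7.68 with miR-203a and 7.92, 8.15 and 7.57 with miR-205, against 5.71, 5.48 and 5.85 with miR-NC. EVPL, or envoplakin, a partner of periplakin, rose by 2.02 ± 0.22 with miR-203a and 1.81 ± 0.22 with miR-205. CLDN1 had 8.26, 8.45 and 8.37 with miR-205, against 6.85, 6.59 and 5.91 with miR-NC, a rise of 1.91 ± 0.16. These comparisons share the miR-NC arrays, so a rise with both miRNAs and a low value with miR-NC cannot be told apart. On the arrays labelled untransfected SKOV3, CTNNA1 averaged 4.45, below the background level as in PC3 miR-NC. There PKP1 averaged 9.94, PKP3 8.66, CLDN1 7.63, EVPL 6.53 and CLDN7 5.27. In PC3 miR-NC they averaged 6.71, 5.68, 6.45, 5.47 and 3.93.

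PATJ and NECTIN3 fell with both of these miRNAs in PC3, as did 2 of the 3 desmosomal cadherins. All 3 desmosomal cadherins fell with miR-203a, by 0.37 ± 0.11 for DSG2, 0.41 ± 0.10 for DSC2 and 0.52 ± 0.22 for DSC3, while DSG2 with miR-205 changed by 0.06 and was not called. PATJ had 9.34, 9.14 and 9.44 with miR-203a and 9.46, 9.49 and 9.18 with miR-205, against 10.36, 10.09 and 9.99 with miR-NC. Its probe sets disagree, though: another PATJ probe set was higher by 0.90 with miR-203a and 0.75 with miR-205, and on their mean the change was -0.23 with miR-203a (adjusted p = 0.0872) and 0.024 with miR-205 (adjusted p = 0.88). NECTIN3 had 9.47, 9.63 and 9.78 with miR-203a, against 10.87, 10.77 and 10.53 with miR-NC, a fall of 1.10 ± 0.15 (adjusted p = 2.18e-07), and -0.18 on the mean of its probe sets (adjusted p = 0.351). DSC3 had 8.93, 9.14 and 8.67 with miR-205, against 9.42, 9.90 and 9.80 with miR-NC, a fall of 0.79 ± 0.22. CLDN11 had 11.69, 11.66 and 11.50 with miR-205, against 12.11, 12.30 and 12.37 with miR-NC, a fall of 0.64 ± 0.12 that is -0.04 on the mean of its probe sets.

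DSP set the 2 miRNAs apart most clearly. It had 11.67, 11.46 and 11.42 in PC3 with miR-205, against 10.13, 10.29 and 10.61 with miR-203a, a difference of 1.17 ± 0.11 (adjusted p = 1.55e-09). Against miR-NC it fell by 0.85 ± 0.11 with miR-203a and rose by 0.32 ± 0.11 with miR-205. In this direct comparison 12 junction genes differed (7 higher, 5 lower), where 32.2% of all genes did (16.5% higher, 15.7% lower). PKP3 and PKP1 were not among them, at differences of 0.02 and -0.34, and TJP3, or ZO-3, was lower with miR-205 by 0.79 ± 0.15. The 5′ GAPDH control averaged 8.70 with miR-205 and 9.99 with miR-203a, closer to each other than either was to the 5.04 of miR-NC.

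**Figure D4:**
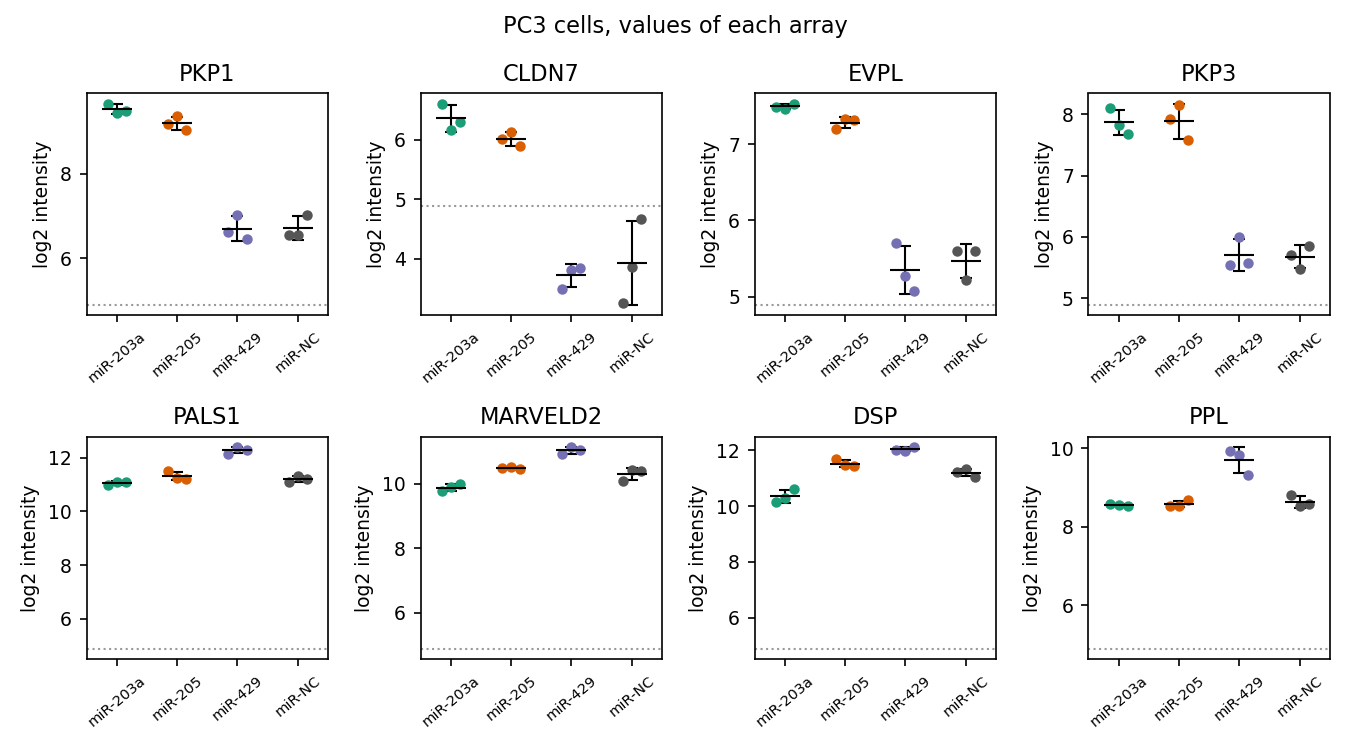
Log2 intensity of 8 junction genes on each PC3 array, with miR-203a, miR-205, miR-429 and miR-NC. Points are arrays, bars are the mean and SD of 3 arrays, and the dotted line is the median of all values (4.89). PKP1, CLDN7, EVPL and PKP3 are high with miR-203a and miR-205 only, while PALS1, MARVELD2, DSP and PPL are highest with miR-429.

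In HEY miR-203a changed few junction genes, and none by more than 1.07 log2 units. NECTIN2 had 8.33, 8.19 and 8.27 with miR-203a, against 7.28, 7.47 and 7.33 with miR-NC, a rise of 0.90 ± 0.11 (adjusted p = 4.85e-07). CLDN1 had 10.65, 10.70 and 10.73 with miR-203a, against 10.08, 10.14 and 10.04 with miR-NC, a rise of 0.61 ± 0.16. OCLN, or occludin, had 11.20, 11.05 and 11.14 with miR-203a, against 10.73, 10.61 and 10.72 with miR-NC, a rise of 0.44 ± 0.14. That call did not hold in the fit of all 45 arrays (adjusted p = 0.0668), in the separate fit of the line (0.0551), or without miR-NC replicate 2 (0.0835), miR-203a replicate 1 (0.0818) or miR-203a replicate 3 (0.0578). MARVELD2 fell by 1.07 ± 0.18, with 4.09, 3.47 and 4.34 with miR-203a against 5.23, 4.91 and 4.96 with miR-NC, so it ended below the background level. PATJ had 6.18, 6.51 and 6.11 with miR-203a against 7.11, 7.36 and 6.64 with miR-NC, a fall of 0.77 ± 0.18.

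With miR-205 HEY had 10 rises and 18 falls, where 70.6% of all genes were called (35.7% higher, 35% lower). The median change was -0.13 over the junction genes and 0.05 over all genes. PARD6B had 6.04, 6.26 and 5.85 with miR-205, against 8.41, 8.69 and 8.39 with miR-NC, a fall of 2.45 ± 0.18 (adjusted p = 3.78e-13). OCLN had 8.10, 8.68 and 8.40 with miR-205, against 10.73, 10.61 and 10.72 with miR-NC, a fall of 2.29 ± 0.14 (adjusted p = 7.73e-15). Among the other genes with large falls were MPP7 (-1.82), DSC2 (-1.67), PATJ (-1.43), DSP (-1.36), AFDN (-1.22) and PKP2 (-1.21). PKP3 ran against them, with 8.41, 7.93 and 7.94 with miR-205 against 5.20, 4.97 and 5.15 with miR-NC, a rise of 2.99 ± 0.18, or 7.94-fold (adjusted p = 1.6e-14). PARD3 had 9.48, 9.40 and 9.44 with miR-205, against 7.90, 7.86 and 7.64 with miR-NC, a rise of 1.64 ± 0.10. EVPL had 5.21, 4.95 and 4.93 with miR-205 and was below the background level with miR-NC, at 4.15, 3.72 and 3.72.

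With miR-429 HEY had 11 rises and 13 falls, where 62% of all genes were called (23.1% higher, 38.9% lower). The median change was -0.05 over the junction genes and -0.16 over all genes. PARD3 had 10.24, 9.94 and 10.08 with miR-429, against 7.90, 7.86 and 7.64 with miR-NC, a rise of 2.29 ± 0.10, or 4.89-fold (adjusted p = 7.25e-17). PKP2 had 10.19, 9.94 and 10.04 with miR-429, against 8.45, 8.59 and 8.39 with miR-NC, a rise of 1.58 ± 0.18. PKP3 had 6.23, 6.22 and 6.99 with miR-429, against 5.20, 4.97 and 5.15 with miR-NC, a rise of 1.38 ± 0.18. None of these groups overlapped, which was part of the rule that picked these genes and held for 64.8% of all genes. CLDN11 had 4.87, 4.73 and 4.55 with miR-429, against 8.07, 7.78 and 7.97 with miR-NC, a fall of 3.22 ± 0.12 (adjusted p = 1.56e-18), the largest fall of the set and one that ended below the background level. CGNL1 had 4.03, 5.16 and 3.29 with miR-429, against 6.12, 6.22 and 6.02 with miR-NC, a fall of 1.96 ± 0.24. MARVELD2 fell by 1.26 ± 0.18, the opposite of its rise with miR-429 in SKOV3 and PC3. In HEY it averaged 5.03 with miR-NC, just above the background level, and 3.78 with miR-429, below it.

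Several HEY values depend on the probe set. With miR-429, AFDN was lower by 0.84 on its brightest probe set and higher by 3.34 on another. PARD3 was higher by 2.29 on the probe set used and lower by 1.04 on another, and DSC2 was lower by 0.50 and on another higher by 2.32. CLDN11 with miR-205 was lower by 2.20 on the probe set used and higher by 1.15 on another, and its change was -0.11 on their mean. These opposite signs lie within 1 gene on the same arrays, and which part of each transcript the probe sets read was not tested.

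NECTIN2, a nectin that also serves as a ligand on tumour cells, was the only junction gene that passed the test as higher in all 9 comparisons with miR-NC. The share of all genes that did so was not counted, and it cannot exceed the 1.99% that rose with miR-203a in each line. Whether NECTIN2 stands out among all genes was therefore not tested. In PC3 NECTIN2 had 7.72, 7.50 and 7.34 with miR-203a, 7.72, 7.73 and 8.06 with miR-205 and 7.70, 7.74 and 7.64 with miR-429, against 5.91, 6.08 and 6.24 with miR-NC. In SKOV3 it had 8.20, 8.27 and 8.32 with miR-203a, 8.00, 8.01 and 8.02 with miR-205 and 7.53, 7.89 and 7.85 with miR-429, against 6.80, 6.91 and 6.82 with miR-NC. PKP3 also averaged above miR-NC in all 9, but was not called in 3 of them. The NECTIN2 rises ranged between 0.44 in HEY with miR-205 and 1.76 in PC3 with miR-205. A further NECTIN2 probe set averaged above miR-NC in all 9 as well (0.06 to 2.27), and another was lower in HEY with miR-429, by 0.26. The 3 miRNAs of a line share its miR-NC arrays, so a rise with all 3 miRNAs and a low value with miR-NC cannot be told apart. On the arrays labelled untransfected NECTIN2 averaged 8.43 ± 0.19 (HEY), 7.69 ± 0.16 (SKOV3) and 8.41 ± 0.09 (PC3), above every miR-NC group.

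**Figure D5:**
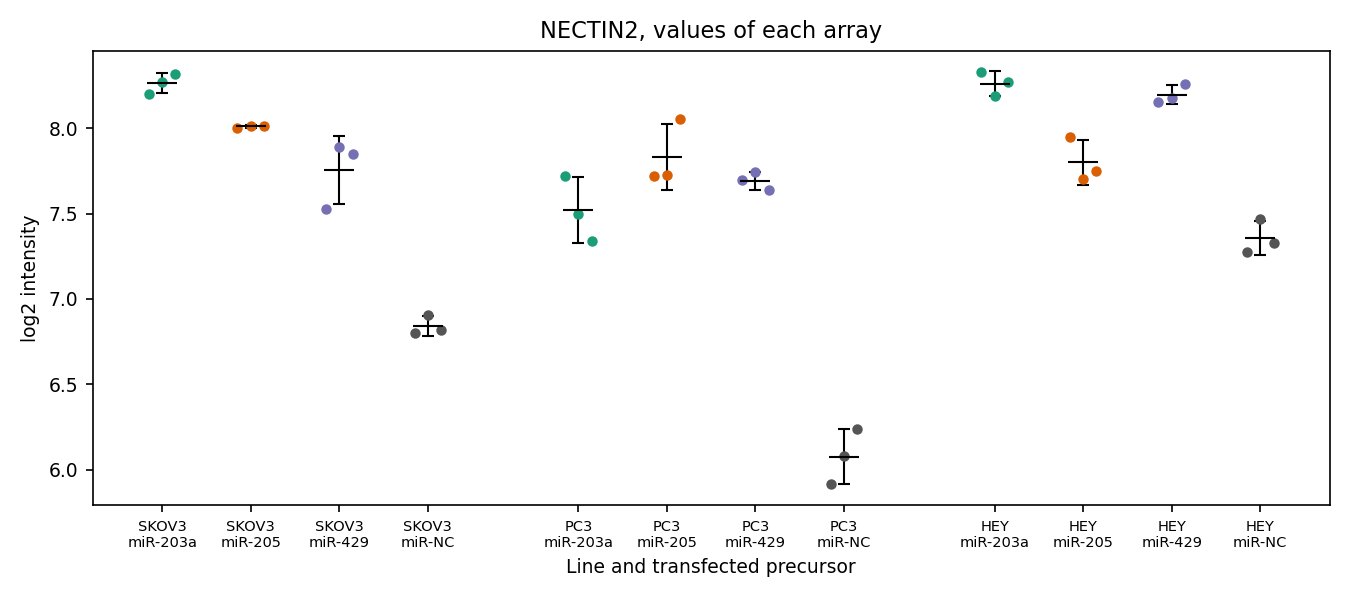
Log2 intensity of NECTIN2 on each transfected array, by line and precursor. Points are arrays, and bars are the mean and SD of 3 arrays. In each line all 9 arrays with a miRNA lie above all 3 miR-NC arrays, with miR-NC at 6.84 in SKOV3, 6.08 in PC3 and 7.36 in HEY.

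The same holds for TJP1 and PKP2 in SKOV3. The arrays labelled untransfected HEY, whose ERBB2 was at the level of SKOV3, had TJP1 at 11.55 ± 0.13 and PKP2 at 7.58 ± 0.33. SKOV3 with miR-NC had TJP1 at 10.33 and PKP2 at 5.70, below these. Over all 38 junction genes, 16 (42.1%) were higher on those arrays than in SKOV3 miR-NC, as were 37.4% of all genes.

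Few junction genes moved alike in all 3 lines. With miR-429, DSP, NECTIN2, PKP2 and TJP1 rose in each line (4 of 38, where 2.23% of all genes did), and none fell in each (2.89% of all genes). DSP rose by 0.84 in PC3, 0.40 in SKOV3 and 0.84 in HEY. On the mean of probe sets the calls of TJP1 in HEY (adjusted p = 0.139) and of PKP2 in PC3 (adjusted p = 0.0653) did not hold. With miR-205, CLDN4, CRB3, NECTIN2 and PKP3 rose in each line (4 of 38, where 3.89% of all genes did), and CLDN11 fell (1 of 38, where 3.58% did). On the mean of its probe sets the CLDN11 calls in HEY (adjusted p = 0.368) and PC3 (adjusted p = 0.763) did not hold. CRB3 rose by 0.50 in PC3, 0.54 in SKOV3 and 0.77 in HEY, but its calls in PC3 and SKOV3 did not hold after quantile normalization (adjusted p = 0.11 and 0.0547). In SKOV3 the CRB3 call was also lost with the replicate block (0.0541) and with no filter (0.055). Without 1 array it was lost in both lines in every refit but that without miR-NC replicate 1 in PC3 and miR-NC replicate 2 in SKOV3, with adjusted p up to 0.193 in PC3 and 0.125 in SKOV3. In HEY CLDN4 averaged 4.41 with miR-205 and 3.82 with miR-NC, both below the background level. The CLDN4 calls in PC3 and HEY did not hold on the mean of its probe sets (adjusted p = 0.198 and 0.299). That in HEY was also lost in the separate fit of the line (0.0587) and without miR-NC replicate 1 (0.055) or miR-205 replicate 2 (0.0635). With miR-203a, CLDN1 and NECTIN2 rose in each line (2 of 38, where 1.99% did) and MARVELD2 fell (1 of 38, where 2.34% did). The MARVELD2 call in PC3 did not hold with the replicate block (adjusted p = 0.0557), in the fit of all 45 arrays (0.0604), with no filter (0.0531) or on the mean of its probe sets (change -0.19, 0.216). It was also lost without miR-NC replicate 2 (0.129) or 3 (0.113) and without miR-203a replicate 1 (0.12) or 2 (0.0766).

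The response differed between lines for most genes on the array, junction genes included, by a moderated F-test of the miRNA by line terms. With miR-205 it differed for 29 of the 38 junction genes (76.3%), a share close to the 75.8% of all genes. It differed for 27 with miR-203a (71.1%), where 53.3% of all genes did, and for 31 with miR-429 (81.6%), where 71.9% did. OCLN with miR-205 changed by 0.36 in PC3, -0.41 in SKOV3 and -2.29 in HEY (adjusted p = 4.13e-12). PKP3 with miR-429 changed by 0.03 in PC3, 1.86 in SKOV3 and 1.38 in HEY (adjusted p = 1.54e-06), and JUP by -0.64 in PC3, 1.05 in SKOV3 and 0.70 in HEY (adjusted p = 7.26e-06). PARD3 with miR-429 changed by 0.41 in PC3, -0.11 in SKOV3 and 2.29 in HEY (adjusted p = 2.43e-13).

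A wider list of 47 junction genes, of which 34 were tested, had 6 higher and 4 lower in SKOV3 with miR-429 (29.4%, beside 29.2% of all genes) and a median change of -0.05. Within it CDH1, or E-cadherin of the adherens junction, averaged 8.59 ± 0.17 with miR-429 and 4.03 ± 0.09 with miR-NC (SD, n = 3 each), a difference of 4.56 ± 0.24 (SE, adjusted p = 7.11e-15), and miR-NC lies below the background level. LSR, which gathers tricellulin at the points where 3 cells meet, averaged 8.11 with miR-429 and 5.79 with miR-NC, a rise of 2.32 ± 0.22 beside the rise of MARVELD2. In PC3 the same list had 11 higher and 5 lower with miR-203a, 13 higher and 7 lower with miR-205 and 8 higher and 8 lower with miR-429, where 62.6%, 55% and 50.9% of all genes were called. LSR rose in PC3 with miR-203a (1.28) and miR-205 (1.48), and MAGI3, a tight junction scaffold, fell with both (-1.60 and -1.02). In HEY it had 1 higher and 2 lower with miR-203a, 8 higher and 12 lower with miR-205 and 9 higher and 14 lower with miR-429, where 18.6%, 70.6% and 62% of all genes were called.

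ZEB1 fell in 7 of the 9 comparisons. In HEY it averaged 9.33 with miR-429 and 9.73 with miR-205, against 11.55 with miR-NC, changes of -2.22 and -1.81. In PC3 it changed by -1.28 with miR-203a, -0.98 with miR-205 and -0.62 with miR-429. GRHL2, an activator of epithelial junction genes, averaged 11.06 ± 0.03 in PC3 with miR-429 and 8.99 ± 0.17 with miR-NC, a rise of 2.06 ± 0.14 (adjusted p = 7.72e-12). In SKOV3 and HEY GRHL2 lay below the background level in every transfected group.

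Within the set, JAM3, TJP3 and CGN had the most alike profiles over the 12 transfected group means, with Pearson correlations of 0.98 between JAM3 and TJP3, 0.98 between JAM3 and CGN, and 0.97 between TJP3 and CGN. The points share lines and arrays, and all 3 genes were highest in PC3 with miR-203a. JAM3, a junctional adhesion molecule, averaged 8.76 there, against 7.58 with miR-NC. TJP3 averaged 8.23 against 6.80 with miR-NC, and CGN averaged 9.49 against 8.60 with miR-NC.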

How the data were processed

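For 45 Affymetrix arrays the authors deposited log2 intensities per probe set, made with RMA per the submitters' processing notes, whose version is not given in the sources used here. RMA corrects background, normalizes arrays and summarises probes. Array medians lay between 4.49 and 4.98, so the arrays may not share 1 normalization. The 3 arrays of PC3 with miR-429 were the lowest, at 4.51, 4.51 and 4.49, and the lowest of the other arrays was at 4.84. RNA was amplified from the 3′ end and labelled with biotin, per the labels. Depth has no meaning for arrays, and 3 arrays per group set the precision.

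The table holds 54675 probe sets, 41091 of them with 1 gene symbol, 1801 with several and 11783 with none. Each gene was read on its brightest probe set over all arrays. Genes whose highest transfected group mean did not exceed 4.89 were left out, which left 14896. limma 3.58.1 in R 4.3.3 (lmFit, eBayes) fitted the 36 transfected arrays as 12 group means, with 24 residual and 4.38 prior degrees of freedom. All p-values are two-sided and were adjusted with the Benjamini-Hochberg method across the genes tested, and 0.05 was the threshold. Differences between lines were tested by a moderated F-test. In a simulation of SKOV3 with miR-429, 84% of changes of 1 log2 unit and 37% of changes of 0.5 were recovered.

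The members and the other lists were chosen with earlier results of these data known. Arrays are named per comparison for up to 3 rises and 3 falls that passed, did not overlap and reached the background level, and for genes called alike in 3 lines or with 3 miRNAs. Alternatives were a fit of all 45 arrays, separate fits of the lines, a replicate block, quantile normalization, array medians subtracted, no filter, a stricter filter, the mean of probe sets, an intensity trend with a robust prior, dropping probe sets prone to cross-hybridisation, the other PC3 miRNA as control, and each array left out.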

Additional observations from a re-analysis of the deposited data

Results flagged for a closer look

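The response differed between lines by the moderated F-test (limma, adjusted over all genes) for 27 junction genes with miR-203a, 29 with miR-205 and 31 with miR-429. Given here are those among them that the rule for values of every array picked in at least 2 lines with the same miRNA. With miR-203a these were CLDN1 (adjusted p = 0.00136), PATJ (0.00165), PARD3 (3.27e-07), PKP2 (0.0121), NECTIN2 (0.00483) and NECTIN3 (0.00403). PATJ with miR-203a changed by -0.84 in PC3, 0.16 in SKOV3 and -0.77 in HEY, and PARD3 by 1.30 in PC3, 0.19 in SKOV3 and 0.33 in HEY. With miR-205 they were CLDN1 (3.23e-11), CLDN11 (6.69e-10), OCLN (4.13e-12), PARD3 (1.93e-11), PARD6B (5.62e-11), PKP2 (1.17e-10), PKP3 (2.32e-05) and NECTIN2 (5.57e-08). PKP2 with miR-205 changed by 0.78 in PC3, 1.66 in SKOV3 and -1.21 in HEY, and CLDN1 by 1.91 in PC3, 0.86 in SKOV3 and -0.97 in HEY. PARD6B with miR-205 changed by -0.48 in PC3, 0.57 in SKOV3 and -2.45 in HEY. With miR-429 they were CLDN1 (2.83e-05), TJP1 (3.57e-06), CGNL1 (0.00133), PARD3 (2.43e-13), DSP (0.0166), PKP2 (0.000411), PKP3 (1.54e-06), JUP (7.26e-06) and NECTIN2 (7.63e-05). CLDN1 with miR-429 changed by 0.86 in PC3, 0.63 in SKOV3 and -0.43 in HEY. The 5′ control probe sets differed between lines in the same comparisons, and their part in these differences was not tested.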

How the results depend on the processing

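Leaving out each array in turn gave 22 to 24 called junction genes in SKOV3 with miR-429, 13 to 18 with miR-205 and 9 to 11 with miR-203a. The ranges were 19 to 22, 20 to 24 and 25 to 28 in PC3 with miR-429, miR-205 and miR-203a, and 23 to 26, 25 to 28 and 6 to 8 in HEY. The direct comparison in PC3 gave 8 to 13. With the replicate number as a block the counts were 24, 17 and 12 in SKOV3 and 21, 26 and 27 in PC3 with miR-429, miR-205 and miR-203a. In HEY the block gave 24, 28 and 8. The numbers were not treated as a pairing, since correlations of same-numbered arrays lay between -0.08 and 0.10 in HEY, -0.12 and 0.11 in SKOV3 and -0.16 and 0.23 in PC3. With the other PC3 miRNA as control the counts were 12 for miR-203a and 12 for miR-205. Then PKP3 (-0.017), CLDN1 (-0.40), PKP2 (-0.13) and NECTIN2 (-0.31) turned sign with miR-203a, and PKP1 (-0.34), CLDN7 (-0.34), CLDN4 (-0.46), PARD3 (-0.27), CRB3 (-0.45) and PATJ (0.071) with miR-205. On the mean of probe sets NECTIN3 in SKOV3 with miR-203a (0.048), PARD6B in SKOV3 with miR-205 (-0.16), PATJ in PC3 with miR-205 (0.024) and PARD3 in PC3 with miR-429 (-0.07) turned sign, as did PATJ in PC3 with miR-205 without probe sets that may cross-hybridise (0.33); the cause was not tested. Of all genes called in PC3 with miR-429, 39.5% were higher as deposited, 47.2% after quantile normalization and 78.8% with array medians subtracted, and in SKOV3 quantile normalization moved the same share to 51.9% with miR-429 (66.1% as deposited) and 51.7% with miR-205 (64.3%). Signal near background limits CLDN4, CLDN7, MARVELD2, CRB3, JUP, PPL and EVPL in HEY.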

Other observations

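Junction genes on the arrays labelled untransfected are given as values only, since genes that mark the lines go against those labels. CLDN4 averaged 11.22 and CLDN3 9.55 on the arrays labelled SKOV3, above every transfected group of any line. PKP1 averaged 9.94 and DSC3 9.77 on the same arrays, beside 6.71 and 9.71 in PC3 miR-NC. CLDN11 averaged 3.24 on the arrays labelled HEY and 3.80 on those labelled SKOV3, below the background level, and 6.00 on those labelled PC3. MARVELD2 averaged 8.76 on the arrays labelled HEY, 7.76 on those labelled SKOV3 and 3.60 on those labelled PC3. E-cadherin (CDH1) spread widely on the arrays labelled HEY, at 8.12 ± 2.09 (SD, n = 3).

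ZEB2, the partner repressor of ZEB1, fell by 2.52 in HEY with miR-429 and by 1.92 with miR-205. SNAI2, another repressor of junction genes, changed by -1.08 in PC3, -1.30 in SKOV3 and -0.63 in HEY with miR-203a, and all 3 passed the test.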
